A study of Mus musculus with 8 samples.

Results

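Gene expression in mouse testis was compared between arrays labelled double knockout and arrays labelled wild type, over 7282 tested probe sets. The comparison used 4 of the 8 arrays of the series, 2 for each genotype, taken by their sample titles. Per the labels, the double knockout mice lacked Ku86 and were of the third generation without Terc (G3-Terc-/-), and the wild type mice carried both genes. The other 4 arrays were 2 of Ku86 knockout mice and 2 of third-generation Terc knockout mice. They entered the model as further measurements of the spread and for tests that involve the single knockouts. Their signals also counted in deciding which probe sets were bright enough to be tested. No source used here gives the strain or age. The labels call the RNA source testis, whereas the scanner records call it germ cells. In those records the RNA of double knockout replicate 1 comes from 3 pooled mice, each other array names 1 mouse, and wild type replicate 1 is a repeated hybridisation. The p-values measure only the spread between these few samples.

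Ku86, the protein of Xrcc5, pairs with Ku70 (Xrcc6) into a ring that binds broken DNA ends and starts non-homologous end joining, and the pair also binds telomeres. Terc is the RNA template that telomerase copies onto chromosome ends, so mice bred without it lose telomere sequence over generations, and dividing germ cells are among the cells this affects. In the testis, germ cells divide and mature inside tubules. They are nursed by Sertoli cells and wrapped by contractile peritubular cells, while the steroid-making Leydig cells lie between the tubules. In RNA of a whole organ, fewer cells of a type and less RNA per cell cannot be told apart.

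Signals are the authors' linear intensities in arbitrary units. Differences are given on the log2 scale as double knockout minus wild type, where 1 is a 2-fold change, with the standard error (SE) of limma's model, and p is unadjusted unless it is called adjusted. Median signal was 49.6 and 59.3 on the wild type arrays and 60.5 and 70.5 on those labelled double knockout. The 2 double knockout arrays correlated at 0.945 across probe sets, the wild type pair at 0.948, and arrays of the 2 genotypes at 0.931 to 0.947. Scan day and chip lot changed together. Scan day 1 held double knockout replicate 1, day 2 held double knockout replicate 2 and wild type replicate 2, and day 3 held wild type replicate 1 alone. Ku86 knockout replicate 1 was also scanned on day 1, and Ku86 knockout replicate 2 and both Terc knockout arrays on day 2. RNA of somatic cells was present on every array: Clu, of Sertoli cells, read 397 to 1410, and Cyp17a1, of Leydig cells, 477 to 1042.

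In its tested probe set, the targeted gene went against the labels. This Xrcc5 probe set read 46.3 and 75.6 on the wild type arrays and 259 and 423 on those labelled double knockout. It was also high on the arrays labelled Ku86 knockout, at 420 and 459, and low on those labelled Terc knockout, at 71.2 and 11.1. The difference was 2.48 (SE 0.63, limma adjusted p = 0.337). A second Xrcc5 probe set was too dim to be tested, at 0.4 to 3.4 over all arrays. No source used here places the probes of either relative to the deletion, and probes lying outside the deletion check nothing. The array groups are therefore called by their labels throughout, and every direction below rests on them. Xrcc6, the partner subunit, read 73.5 and 128 in wild type and 94.2 and 97.8 in the arrays labelled double knockout, so the groups overlapped. Tert, which encodes telomerase's catalytic protein, read 91.7 and 96.8 against 142 and 104, a difference of 0.36 (SE 0.32) with an adjusted p of 0.825. Terc itself was not analysed here.

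After Benjamini-Hochberg adjustment in limma, 2 of 7282 probe sets passed a threshold of 0.05 (0.0275% of those tested), 1 higher (0.0137%) and 1 lower (0.0137%), or 2 of 5530 genes (0.0362%). The next smallest adjusted p was 0.121. Without adjustment, 626 probe sets (8.6%) had p under 0.05, of which 462 were higher (6.34%) and 164 lower (2.25%) on the arrays labelled double knockout. With p under 0.01, 142 were higher (1.95%) and 26 lower (0.357%), and 330 were higher (4.53%) and 55 lower (0.755%) by more than 1 on the log2 scale. Groups did not overlap for 1690 probe sets that were higher (23.2%) and 964 that were lower (13.2%), and 58.7% of differences were above 0. Both double knockout arrays lay above all other 6 for 5.26% of probe sets and below them for 2.8%. The split at p under 0.05 depended on scaling: it was 305 higher and 178 lower after quantile normalization, and 195 higher and 524 lower when arrays were centred on their medians. Centring moved the median difference of all 5530 genes from 0.08 to -0.19. The differences also followed brightness. Among the dimmest 1821 probe sets the median difference was 0.22, with 150 higher and 18 lower at p under 0.05, and in the brightest 1821 it was -0.07, with 50 higher and 109 lower. The values of single genes and lists below are best read against these shifts.

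**Figure D1:**
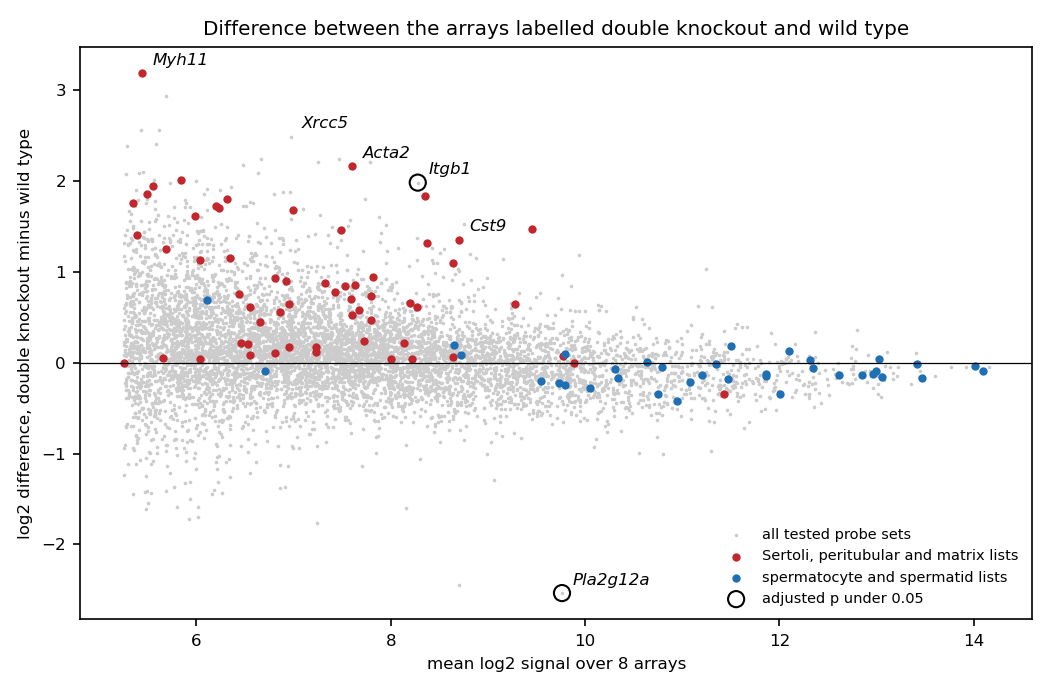
Log2 difference between the arrays labelled double knockout and wild type (vertical axis) against mean log2 signal over 8 arrays (horizontal axis), with 1 point for each of 7282 tested probe sets. Circles mark Itgb1 (1.98) and Pla2g12a (-2.54); red points are genes of the Sertoli, peritubular and matrix lists, which lie mostly above 0, and blue points are spermatocyte and spermatid genes, which lie close to 0.

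Itgb1 rose. It encodes integrin beta-1, the shared subunit of many receptors that hold cells to laminin and collagen, and it is used as a surface marker of spermatogonia. Its signal was 116 and 185 on the wild type arrays, and 609 and 550.4 on those labelled double knockout. Both double knockout values exceeded those of all other 6 arrays, since Ku86 knockout read 276 and 343 and Terc knockout 406 and 312. The difference from wild type was 1.98 (SE 0.28, limma adjusted p = 0.0478). The difference from Ku86 knockout was 0.91 (limma adjusted p = 0.9995) and that from Terc knockout 0.70 (limma adjusted p = 0.99). A second probe set of the gene gave 1.94, with 19.8 and 58.9 in wild type against 120 and 142.

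Pla2g12a, which encodes a secreted phospholipase A2, fell. Its probe set read 1781 and 2661 in wild type and 331 and 426 on the arrays labelled double knockout, a difference of -2.54 (SE 0.34, limma adjusted p = 0.0478). The arrays labelled Terc knockout were as low, at 297 and 568, while those labelled Ku86 knockout read 2212 and 1301. The double knockout differed from Ku86 knockout by -2.17 (limma adjusted p = 0.128) and from Terc knockout by -0.13. Terc knockout against wild type passed as well (limma adjusted p = 0.0488). A dimmer probe set of the same gene gave -0.99 (limma adjusted p = 0.683). Both called probe sets carry the suffix that marks probes shared with related sequences, so their assignment to a single gene is uncertain. With each of the 8 arrays left out in turn, the adjusted p of Itgb1 ran from 0.0379 to 0.268 and was under 0.05 only without either Ku86 knockout array or wild type replicate 2. That of Pla2g12a ran from 0.0222 to 0.241 and was under 0.05 only without either Ku86 knockout array or Terc knockout replicate 2. With scan day as a block the adjusted p was 0.325 for Itgb1 (difference 1.69) and 0.137 for Pla2g12a (-2.93). The adjusted p was under 0.05 in 8 of 20 alternative settings for Itgb1 and 9 of 20 for Pla2g12a, and both kept their direction in all 20.

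Among genes with non-overlapping groups and p under 0.01, the 12 largest positive differences came from a pool of 125 and the 12 largest negative ones from a pool of 23. Apart from Pla2g12a, none of them passed adjustment, and Xrcc5, given above, is among the positive ones. Myh11, the smooth muscle myosin heavy chain, stood first. It read 4.6 and 9.8 in wild type, under the floor of 11.8, and 95.7 and 121 on the arrays labelled double knockout. With wild type set to the floor, the double knockout mean was at least 9.17-fold higher than wild type. Acta2, smooth muscle actin, read 81.1 and 91.1 against 296 and 500.2 (2.16, SE 0.42). Csrp1, a LIM protein of smooth muscle, read 29.9 and 9.6 against 74.7 and 133 (2.41), and its other probe set gave 1.70. The single knockout arrays lay between the groups for Myh11, at 30.4 to 81.4, while for Acta2 and Csrp1 some of them reached the lower double knockout array. For Myh11 and the first Csrp1 probe set, the wild type mean was under the signal required for testing. Their double knockout means were above it.

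Cpt1a, which admits long fatty acids into mitochondria, read 11.7 and 32.4 in wild type against 133 and 168 (2.94, SE 0.76). Cpe, carboxypeptidase E of the secretory pathway, read 87.3 and 137 against 499 and 512 (2.21, SE 0.47), and 1.80 in its other probe set. Igfbp6, which binds insulin-like growth factor 2, read 127 and 48.5 against 363 and 381 (2.24, SE 0.57). In these genes both double knockout arrays exceeded all other 6, although Ku86 knockout replicate 2 came close for Igfbp6, at 315. Jak1, a kinase of cytokine receptors, read 20.7 and 30.3 against 119 and 96.6 (2.10, SE 0.56). Mpp3, a scaffold protein of cell junctions, read 11.5 and 12.7 against 94 and 55.5, but the single knockout arrays were in the same range (53.9 to 72.1). For Cpt1a, Jak1 and Mpp3 the wild type mean was under the signal required for testing. Their double knockout means were above it.

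For Tpp1 the mean signals of Ku86 knockout (26.6) and Terc knockout (29.75) were close to that of wild type (28.65). These means were under the signal required for testing, and only the double knockout mean was above it. The probe set was therefore tested only because of the double knockout arrays. Tpp1 here is the lysosomal tripeptidyl peptidase, not the telomere protein that shares this alias. Its signal was 16.4 and 40.9 in wild type, 30.2 and 23 in Ku86 knockout, 45.3 and 14.2 in Terc knockout, and 113 and 161 on the arrays labelled double knockout. Its difference was 2.38 from wild type (SE 0.69), 2.36 from Ku86 knockout and 2.41 from Terc knockout, with limma adjusted p of 0.376, 0.9995 and 0.967. The interaction, which asks whether the double knockout departs from the sum of the single knockouts, was 2.39 and did not pass adjustment (limma adjusted p = 0.875). Ift46 and Pdgfra showed how probe sets can disagree. Ift46, a transport protein of cilia, gave 2.21 in a dim probe set and -0.10 in a bright one, and Pdgfra, a growth factor receptor of interstitial cells, gave 2.17 and -0.29.

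**Figure D2:**
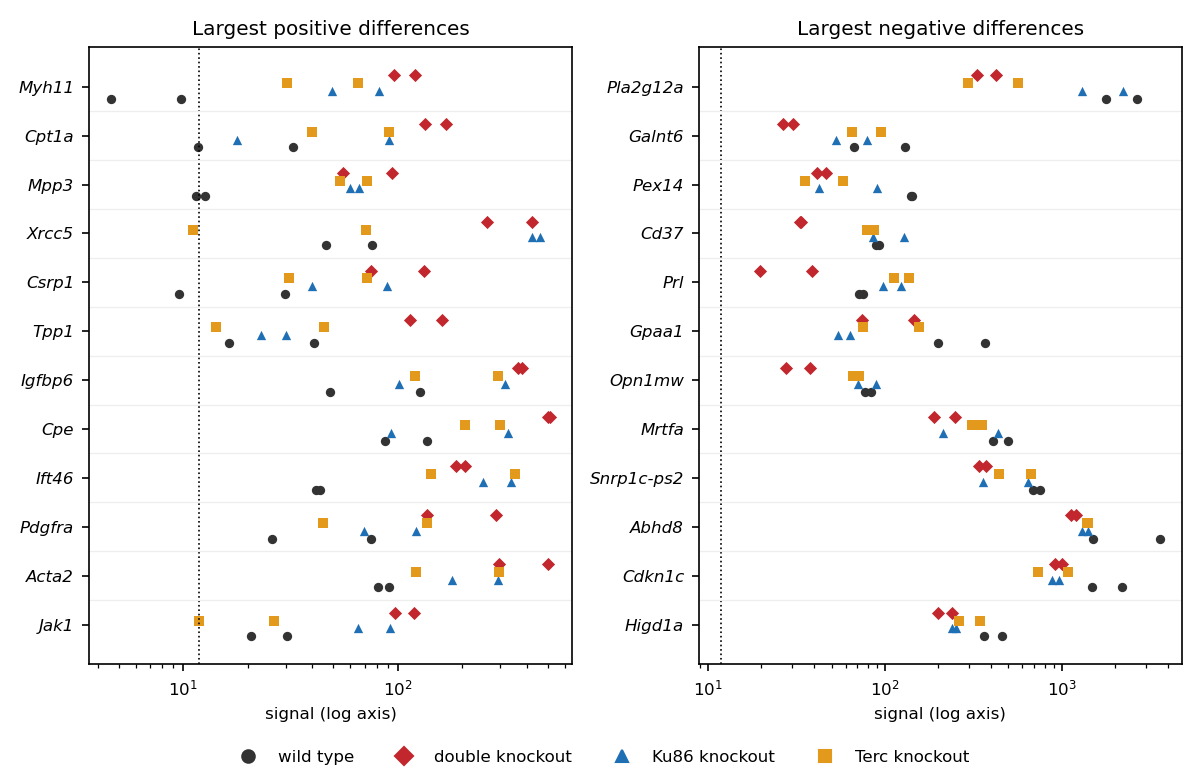
Signal of the 12 largest positive (left) and 12 largest negative (right) differences on each of the 8 arrays, with 1 symbol per array and a log axis. The dotted line is the floor of 11.8; red diamonds (double knockout) and black circles (wild type) do not overlap in any row, which is how the genes were chosen. For Myh11, Cpt1a, Tpp1, Igfbp6, Cpe, Pdgfra, Jak1, Galnt6, Cd37, Prl, Opn1mw and Abhd8 the double knockout arrays also lie beyond the single knockout arrays.

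The genes with the largest negative differences after Pla2g12a did not belong to a common list. Galnt6, which starts mucin-type sugar chains, read 66.8 and 130 in wild type and 30.4 and 26.4 on the arrays labelled double knockout (-1.72, SE 0.47). Cd37, a tetraspanin of B cells, read 88.9 and 92.8 against 33.2 and 33.5 (-1.45, SE 0.38). Prl, the prolactin gene, read 71 and 75 against 38.7 and 19.8 (-1.40, SE 0.41), while the 4 single knockout arrays read 97.1 to 137. Its interaction was -2.75 (limma adjusted p = 0.792). Opn1mw, a cone opsin, read 77.3 and 83.5 against 37.8 and 27.6. These 4 genes were lower on both double knockout arrays than on all other 6, which held for 2.68% of all genes, and their signals there were under the mean signal of 38.1 required for testing or close to it.

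Cdkn1c and Higd1a were lower than both wild type arrays on the arrays of all 3 mutant genotypes. So were the named probe sets of Pex14, Gpaa1, Abhd8 and Snrp1c-ps2, given below. The share of all genes with this pattern was not counted. Cdkn1c, the cell cycle inhibitor p57, read 2206 and 1491 in wild type, 998 and 915 on the arrays labelled double knockout, and 731 to 1086 on the single knockout arrays (-0.92, SE 0.24). It was the 1 lower gene at p under 0.05 among 7 tested cell cycle inhibitors, where 0 were higher (2.37% of all genes were lower and 6.51% higher). Higd1a, a small mitochondrial protein, read 460 and 365 against 199 and 239 (-0.91, SE 0.25). Mrtfa, a coactivator of serum response factor, read 497 and 409 against 189 and 248 (-1.06, SE 0.32), but Ku86 knockout replicate 2 read 435. For Abhd8 the difference of -0.99 rested on wild type replicate 1, which read 3598 against 1506 on replicate 2, and it was -0.41 within scan day 2. Pex14 and Gpaa1 gave -1.69 and -1.38, and Snrp1c-ps2, a pseudogene, gave -1.01, but the other probe sets of Pex14 gave -0.28 and -0.21 and that of Gpaa1 -0.37.

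Genes of Sertoli cells were higher on the arrays labelled double knockout. Of 28 listed genes 23 had a probe set and 20 were tested, and 10 of these 20 had p under 0.05, all higher, where 6.51% of all genes were higher and 2.37% lower at that threshold. The median difference was 0.68, against 0.08 for all genes. With no filter on low signals, 11 of 23 were higher and 0 lower, where 5.47% of all genes were higher and 2.16% lower. Groups did not overlap for 14 of the 20, all higher, against 23.7% of genes. None passed adjustment. For 1 of the 20, Kitl, the wild type mean was under the filter and the double knockout mean above it. The count was 6 without double knockout replicate 1 and 7 without either wild type array, and the median within scan day 2 was 0.59. The list's median signal was 159, in the brightness range of 1820 probe sets whose own median difference was 0.15; the part of brightness in the list's difference was not tested.

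Cst9, a cystatin made in the testis, read 302 and 280 in wild type and 885 and 624 on the arrays labelled double knockout (1.35, SE 0.28, limma adjusted p = 0.21). Cldn11, the claudin that seals the Sertoli cell barrier, read 42.9 and 54.6 against 191 and 148 (1.80, SE 0.38). Ctsl, the cathepsin L protease that Sertoli cells secrete in a cycle, read 184 and 200 against 779 and 602 (1.84, SE 0.42). In these genes both double knockout arrays exceeded the other 6. Clu, the secreted chaperone clusterin, read 494 and 397 against 1410 and 1062 (1.47, SE 0.34). Wt1, a transcription factor needed for Sertoli cell identity, read 64.6 and 45.7 against 126 and 116 (1.15, SE 0.36).

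Regulators and signals of these cells varied in how far apart they were. Gata4 read 141 and 150.2 against 246 and 229 (0.70), and Kitl, the ligand of the Kit receptor on spermatogonia, read 20.6 and 24.6 against 87.9 and 65.5 (1.75, SE 0.61). Inha, the inhibin alpha chain, read 269 and 151 against 394 and 382 (0.95, limma adjusted p = 0.65). Fshr, the receptor for follicle-stimulating hormone, read 202 and 316 against 256 and 264, and its groups overlapped. The groups also overlapped for Amh, at 32.3 and 41.3 against 30 and 44.1, and for Gata1, Gdnf, Shbg and Ptgds, so the higher signal was not common to all markers of the cell type. The 3 genes left out by the filter were Inhbb, at 4.8 and 5.4 against 23.3 and 46.2, Vim and Krt18.

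**Figure D3:**
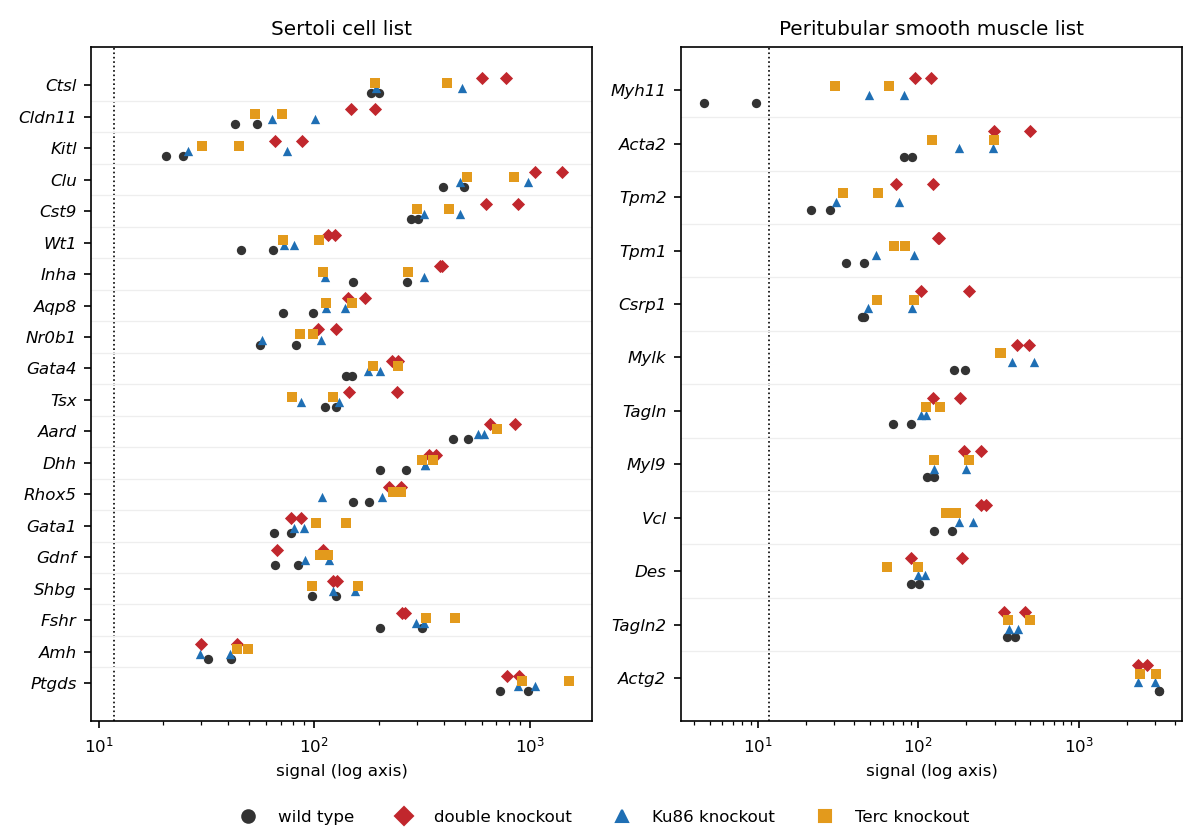
Signal of the 20 tested Sertoli cell genes (left) and the 12 tested peritubular smooth muscle genes (right) on each of the 8 arrays, on a log axis, ordered by the difference between double knockout and wild type. Red diamonds (double knockout) lie to the right of black circles (wild type) for 14 Sertoli genes, from Ctsl to Rhox5, and overlap them for the other 6; the single knockout arrays lie mostly between.

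Genes of cell junctions, which also build the blood-testis barrier, had a median difference of 0.60. Of 14 tested, 5 were higher at p under 0.05 and 0 lower (6.51% and 2.37% of all genes), and with no filter 3 of 17 were higher (5.47% of all genes). For 1 of the 14 the wild type mean was under the filter and the double knockout mean above it. Besides Cldn11, Gja1, the gap junction protein that couples Sertoli and germ cells, read 64.1 and 125 in wild type and 243 and 314 on the arrays labelled double knockout (1.63, SE 0.45). Ctnnb1, beta-catenin, read 260 and 394 against 498 and 475 (0.61, SE 0.26). Tjp1, which anchors tight junctions to the cytoskeleton, read 145 and 149 against 140 and 146. Cdh2, N-cadherin, read 235 and 490 against 252 and 563, where the spread between replicates exceeded the difference. The count fell to 3 without double knockout replicate 2 or wild type replicate 1.

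Genes for the clearance of dead germ cells were also higher. Sertoli cells take up dying germ cells through the receptors Tyro3, Axl and Mertk and their bridging ligands Gas6 and Pros1. Of 8 tested genes of this list, 5 were higher at p under 0.05 and 0 lower (6.51% and 2.37% of all genes), with a median of 0.86. With no filter 4 of 10 were higher (5.47% of all genes). For 3 of the 8, the wild type mean was under the filter and the double knockout mean above it. Gas6 read 102 and 121 in wild type and 277 and 260 on the arrays labelled double knockout (1.27, SE 0.26, limma adjusted p = 0.21). Pros1 read 18.4 and 24.3 against 89.9 and 89.8 (2.09, SE 0.60), and Tyro3 read 47.2 and 26.2 against 270 and 159 (2.56, SE 0.89). In all 3, both double knockout arrays exceeded the other 6. Mfge8, which bridges phosphatidylserine to integrins, read 534 and 558 against 770 and 888 (0.60, SE 0.23), and Scarb1, a scavenger receptor, was within its spread. The count was 3 without double knockout replicate 2 or wild type replicate 1.

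Lysosomal proteases and cystatins had a median difference of 0.50. Of 17 tested, 5 were higher at p under 0.05 and 0 lower (6.51% and 2.37% of all genes). Groups did not overlap for 13, all higher (23.7% of all genes), and with no filter 4 of 22 were higher (5.47% of all genes). Psap, the precursor of the saposins, read 866 and 724 against 1160 and 1183 (0.57, and 0.09 in a dimmer probe set), Ctsb read 114 and 150 against 211 and 266 (0.86), and Ctsd read 203 and 230 against 267 and 389 (0.58). Cst9 and Ctsl, which this list shares with the Sertoli list, had the lowest p. Hexa, at 572 and 468 against 484 and 435, Gusb and Npc1 had overlapping groups. The count was 3 without double knockout replicate 2 or either wild type array.

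Contractile genes of the peritubular cells gave the highest median of the lists, 1.12. Of 20 listed genes, 16 had a probe set and 12 were tested, of which 9 were higher at p under 0.05 and 0 lower (6.51% and 2.37% of all genes). With no filter 9 of 16 were higher (5.47% of all genes). Of the 9, Myh11 and Tpm2 had a wild type mean under the filter and a double knockout mean above it. Besides Myh11, Acta2 and Csrp1, Mylk, the kinase that switches smooth muscle myosin on, read 167 and 196 in wild type and 416 and 491 on the arrays labelled double knockout (1.32, SE 0.24, limma adjusted p = 0.132). Tpm1, a tropomyosin, read 35.7 and 46.1 against 133 and 135 (1.72, SE 0.39). Tagln, transgelin, read 90.4 and 69.6 against 124 and 183 (0.93, SE 0.32). Actg2, enteric smooth muscle actin, was the exception, at 3183 and 3186 against 2680 and 2358 (-0.34, limma adjusted p = 0.656). Its probe set carries the suffix of shared sequences and its signal was far above that of the other members. The count was 5 without double knockout replicate 2, and the median within scan day 2 was 1.36.

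Many smooth muscle genes are switched on by serum response factor, which binds a short element called the CArG box. RefSeq promoters of build GRCm38.p6 were found for 16 of the 20 listed genes, and the 250 bases before the start were searched for the exact box, which reads alike on both strands. It was present for 4 of the 16, against 1.62% of 27025 genes. Those were Vcl, Myl9, Cnn2 and Srf. A match is a description of the sequence and not a bound site, and no exact box in this window says nothing on the other genes. The windows of the tested pair are shown because both genes had p under 0.05, with the box in capitals. The Vcl window is chr14:20929148-20929397 on the plus strand, with the box starting 227 bases before the start. The Myl9 window is chr2:156775214-156775463 on the plus strand, with the box starting 161 bases before it.
Vcl: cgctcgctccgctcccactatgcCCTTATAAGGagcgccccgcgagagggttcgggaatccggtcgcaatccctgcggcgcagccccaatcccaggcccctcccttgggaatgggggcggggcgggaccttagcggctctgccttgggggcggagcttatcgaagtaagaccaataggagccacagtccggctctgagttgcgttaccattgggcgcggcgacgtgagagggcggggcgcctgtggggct
Myl9: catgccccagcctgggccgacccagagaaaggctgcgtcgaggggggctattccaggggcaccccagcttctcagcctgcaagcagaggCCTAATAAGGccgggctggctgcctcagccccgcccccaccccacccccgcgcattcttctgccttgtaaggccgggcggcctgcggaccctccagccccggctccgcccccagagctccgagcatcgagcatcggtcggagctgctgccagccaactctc

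Vcl, vinculin, which ties actin to adhesion sites, read 126 and 162 in wild type and 267 and 248 on the arrays labelled double knockout (0.85, SE 0.26, limma adjusted p = 0.398). A dimmer probe set of Vcl gave -0.38, with 65.9 and 50.2 against 53.2 and 36.5. In the brighter one both double knockout values exceeded those of all other 6 arrays. Myl9, the regulatory light chain of smooth muscle myosin, read 113 and 126 against 193 and 248 (0.87, SE 0.33, limma adjusted p = 0.497). For Myl9, Terc knockout replicate 1 lay within the double knockout range, at 208.

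Extracellular matrix genes had a median of 0.61, and the 27 tested of 36 with a probe set were all above 0, where 58.8% of all genes were. Among the 9 left out by the filter some were lower, such as Nid2, a basement membrane protein, at 43.7 and 60.7 in wild type against 21.8 and 36.1. Of the 27, 12 had p under 0.05, all higher, where 6.51% of all genes were higher and 2.37% lower. With no filter 13 of 36 were higher and 0 lower (5.47% and 2.16% of all genes). For 5 of the 27 the wild type mean was under the filter and the double knockout mean above it. Bgn, the proteoglycan biglycan, read 114 and 109 in wild type and 270 and 346 on the arrays labelled double knockout (1.46, SE 0.35). Sparc, which binds collagen in basement membranes, read 57.8 and 84.8 against 265 and 190.3 (1.68, SE 0.41), and Dcn, decorin, read 264 and 341 against 708 and 578 (1.09, SE 0.31). For Sparc and Dcn both double knockout arrays exceeded the other 6. Lama1, a laminin chain of the tubule wall, read 33.8 and 39.8 against 86.4 and 109 (1.40). Fn1, Lamc1, Col1a2 and Hspg2 had overlapping groups and differences of 0.07 to 0.12. The count was 7 without double knockout replicate 2 or wild type replicate 1.

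Integrin subunits as a group were closer to all genes, with a median of 0.21 over 12 tested, which turned to -0.05 when arrays were centred on their medians. Of these, 3 were higher at p under 0.05 and 0 lower (6.51% and 2.37% of all genes). Besides Itgb1, they were Itgav, at 65.2 and 65.7 against 111 and 261 (1.38, SE 0.51), and Itgb5, at 121 and 101 against 199.9 and 265 (1.06, SE 0.48), with 0.27 in its other probe set. The count was 1 without double knockout replicate 2 or either wild type array. In the insulin-like growth factor axis the median was 0.69 over 11 tested. At p under 0.05, 4 were higher and 0 lower (6.51% and 2.37% of all genes). For 1 of the 11 the wild type mean was under the filter and the double knockout mean above it. Igf2 read 151 and 209 against 368 and 295 (0.89, SE 0.26), and Igf1r, the receptor, read 65 and 117 against 133 and 261 (1.10, SE 0.46).

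Among tested genes of other interstitial cells, few had p under 0.05. Of 10 tested Leydig cell genes 0 had p under 0.05, and their median of 0.15 was above 0 in 18 of 22 settings and below 0 in the other 4, median centring and scan day 2 among them. Cyp17a1, which makes androgen precursors, read 477 and 576 in wild type and 1042 and 535 on the arrays labelled double knockout, so that only replicate 1 was higher. The Leydig cell genes too dim to be tested were all higher without overlap. Hsd3b6 read 38 and 38.7 against 121 and 57, Hsd17b3 13.8 and 30.7 against 45.9 and 40.4, and Hsd11b1 20.8 and 14.6 against 24.5 and 75.7. Terc knockout replicate 2 read 48.5 for Hsd17b3 and 123 for Hsd11b1. Of 6 tested endothelial genes 0 had p under 0.05, with a median of 0.40. The other 10 endothelial genes with a probe set were too dim to be tested, and they went both ways. Cdh5, the cadherin of endothelial junctions, read 6.5 and 6.4 in wild type and 23.7 and 29.8 on the arrays labelled double knockout, above the other 6 arrays. Tek read 4.5 and 2.2 against 14.3 and 25.7, and Kdr read 8.5 and 28.9 against 62.5 and 39.1. Single knockout arrays reached these ranges, Tek at 15.4 and 21.3 in Ku86 knockout and Kdr at 72.2 and 44 in Terc knockout. Both probe sets of Cd34 were higher without overlap. The first read 19.3 and 9.3 against 49.5 and 41.8, above the other 6 arrays, and the second 7.3 and 15.7 against 67.7 and 23.6. Nos3 was lower without overlap, at 11.9 and 14.5 against 9.1 and 11.1. So was a probe set of Flt1, at 12.7 and 25.5 against 12.1 and 12.6. These double knockout signals of Nos3 and Flt1 were under or near the floor of 11.8, and the wild type signals of Cdh5 and Tek were under it. Groups overlapped for Emcn and Tie1. Of 11 macrophage and immune genes 0 were higher and 1, Cd37, was lower, with a median of 0.06. The defining markers Ptprc and Adgre1 stayed at or under 23.8 on every array. Other markers too dim to be tested went both ways. A probe set of Lyz2 read 12.5 and 11.5 against 40.1 and 26.9, and Mrc1 read 27.5 and 4.4 against 37.5 and 35.4. Terc knockout replicate 1 read 46.4 for Lyz2, and Ku86 knockout replicate 2 read 49.6 for Mrc1. Itgam was lower, at 17.4 and 16.6 against 3.1 and 7.7. Among markers of tissue outside the testis, the skeletal and cardiac muscle list had a median of 0.25 over 8 tested. In it 1 gene, Myh4, was higher at p under 0.05, at 34.9 and 18.3 against 47.8 and 91.2 (1.39), and 0 were lower (6.51% and 2.37% of all genes). Groups did not overlap for 4, all higher (23.7% of all genes). For Myh4 the wild type mean was under the filter and the double knockout mean above it. The muscle actin Acta1 read 4.1 to 8.1 on all arrays. Both tested epididymal genes had overlapping groups. The blood marker Hba-a1, alpha globin, was lower, at 3010 and 2205 against 1320 and 1240 (-1.01, SE 0.42, limma adjusted p = 0.525), in a list of 7 tested erythroid genes with a median of 0.21. Adipoq, of fat cells, differed by -0.59 (limma adjusted p = 0.562) in a list of 4. Their part in the other differences was not tested.

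In the lists of germ cell genes past the spermatogonial stage, no tested gene had p under 0.05. This covered 9 spermatocyte, 15 round spermatid and 14 elongating spermatid genes, with medians of -0.13, -0.09 and -0.09. These lists were bright: the median signal of the round spermatid list was 1977, among the brightest 1821 probe sets, whose own median difference was -0.07. Ldhc, the lactate dehydrogenase of spermatocytes and sperm, read 12310 and 12300 in wild type and 10230 and 11640 on the arrays labelled double knockout (-0.17, SE 0.15). Tssk1, a kinase of spermatids, read 2662 and 2241 against 2065 and 1613 (-0.42, SE 0.22). Prm3 read 8721 and 8273 against 7899 and 7697 (-0.12, SE 0.14). Prm2, a protamine that packs sperm DNA, had the largest difference of the elongating list and went the other way. It read 85.5 and 45.6 against 65.1 and 155 (0.69, SE 0.50), with overlapping groups. These signals were far under the list's median signal of 7666, so how well this probe set measures the transcript is uncertain. Groups did not overlap for 3 genes of each list, all lower, where 13.1% of all genes were lower in this way. The median of the elongating list was 0.02 after quantile normalization, and that of the spermatocyte list was 0.04 without double knockout replicate 2.

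Spermatogonial genes, in contrast, had a median of 0.87 over the 7 tested of 20 listed. Of these 7, Cd9 and Dmrt1 had a wild type mean under the filter and a double knockout mean above it. With p under 0.05, 3 were higher and 0 lower (6.51% and 2.37% of all genes), and with no filter 4 of 15 were higher (5.47% of all genes). Besides Itgb1, Cd9, a tetraspanin, read 41.1 and 13.5 in wild type and 99.8 and 86.5 on the arrays labelled double knockout (1.98, SE 0.56), and Dazl, an RNA-binding protein of germ cells, read 272 and 379 against 696 and 495 (0.87, SE 0.27, and 0.16 in a dimmer probe set). Itgb1 and Cd9 are also expressed by other cells. Kit read 35.6 and 46.8 against 82.5 and 56.6 (0.74, limma adjusted p = 0.715). Zbtb16, Gfra1, Ret and Thy1, which mark undifferentiated spermatogonia, were left out by the filter and read no more than 26.9 on any array. With the floor at the 40th percentile the median of the list was 0.

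**Figure D4:**
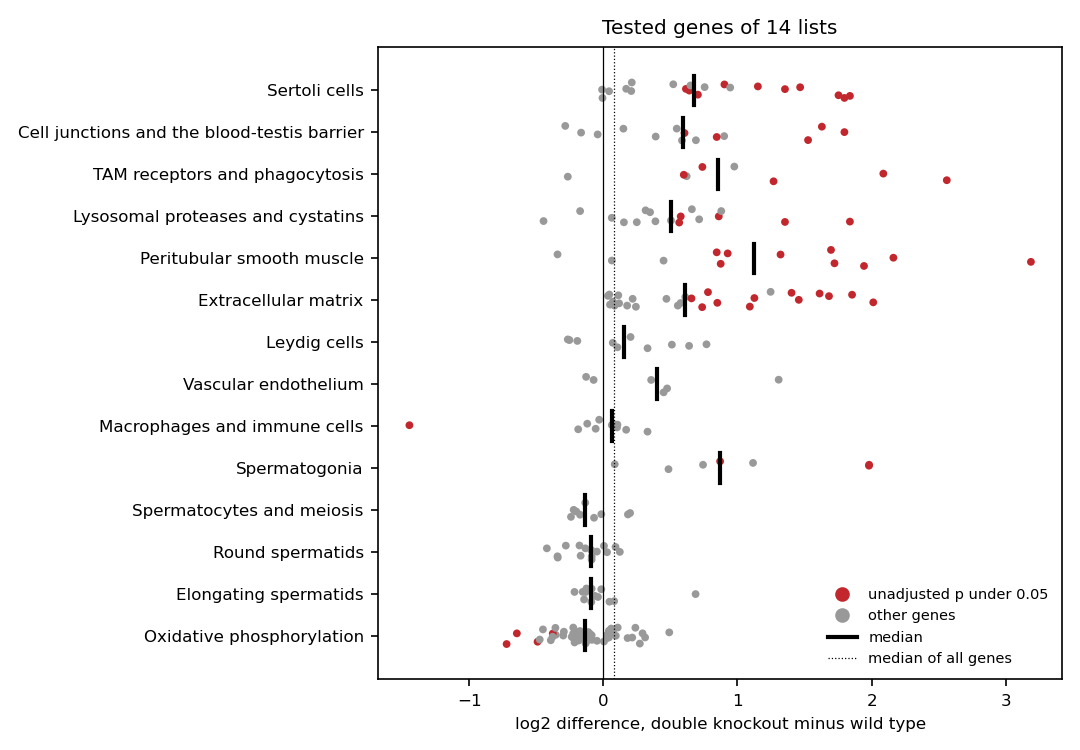
Log2 difference, double knockout minus wild type, of each tested gene of 14 lists, with 1 point per gene, red where the unadjusted p is under 0.05, and a bar at the median. The peritubular, spermatogonial, phagocytosis, Sertoli, matrix, junction and lysosomal lists have medians between 0.50 and 1.12, whereas the spermatocyte, spermatid and oxidative phosphorylation lists lie just below 0.

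Oxidative phosphorylation genes had a median of -0.13 over 50 tested, with 0 higher and 4 lower at p under 0.05 (6.51% and 2.37% of all genes). Cox6c, a subunit of cytochrome oxidase, read 4446 and 4643 in wild type and 2706 and 2809 on the arrays labelled double knockout (-0.72, SE 0.16, limma adjusted p = 0.258), in a probe set of shared sequence. The single knockout arrays were as low, at 2603 to 3112. Ndufb8, of complex I, read 2418 and 2053 against 1460 and 1723 (-0.49, SE 0.18). The list's median signal was 1059, among the brightest 1821 probe sets, and its median was below 0 in all 22 settings.

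Of 4 tested genes of Ku and end joining 1 was higher and 0 lower at p under 0.05 (6.51% and 2.37% of all genes), with a median of 0.12. The higher gene was Xrcc5, given above. In the lists of telomere genes, p53 targets and break signalling, 2 genes had p under 0.05. Of 10 telomere genes 0 had p under 0.05, with a median of 0.01. Of 7 tested p53 targets 1 was higher and 0 lower at p under 0.05 (6.51% and 2.37% of all genes), with a median of 0.43. Groups did not overlap for 4 that were higher and 2 that were lower (23.7% and 13.1% of all genes). The target with p under 0.05 was Sesn1, a stress-induced inhibitor of growth signalling. It read 68.8 and 90.4 in wild type and 225 and 153 on the arrays labelled double knockout (1.24, SE 0.32, limma adjusted p = 0.337), above all other 6 arrays. Cdkn1a, p21, a p53 target that stops the cell cycle, read 194 and 150 against 146 and 141 (-0.25, SE 0.27). Of 10 genes of break signalling and homologous recombination 1 was higher and 0 lower at p under 0.05 (6.51% and 2.37% of all genes), with a median of 0.32. Groups did not overlap for 5, all higher (23.7% of all genes). For 2 of the 10 the wild type mean was under the filter and the double knockout mean above it. With no filter 4 of 14 were higher (5.47% of all genes). The medians of both lists were above 0 in 22 of 22 settings. The higher gene was Hus1, a clamp subunit, at 14.3 and 13.7 against 73.6 and 27.9. Its highest values were on the arrays labelled Terc knockout, at 214 and 292. Of 15 apoptosis regulators, 1 was higher at p under 0.05 and 1 lower, shares near those of all genes (6.51% and 2.37%). They were Cycs, somatic cytochrome c, at 32.8 and 36.5 against 87.1 and 70.5 (1.18), and Bad, a pro-death BCL2 relative, at 553 and 379 against 290.1 and 322 (-0.58). For Cycs the wild type mean was under the filter and the double knockout mean above it.

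In the Sertoli and peritubular lists the single knockout arrays lay between wild type and double knockout. The level of a list on an array is the median, over its genes, of the gene's log2 signal minus its mean over 8 arrays. For the Sertoli list it was -0.41 and -0.43 in wild type, -0.24 and 0.15 in Ku86 knockout, 0.15 and 0.25 in Terc knockout, and 0.40 and 0.26 on the arrays labelled double knockout. For the peritubular list it was -0.63 and -0.68 in wild type, -0.07 and 0.29 in Ku86 knockout, 0.07 and -0.12 in Terc knockout, and 0.40 and 0.79 in the double knockout. In the Sertoli list the 2 arrays of Ku86 knockout differed from each other by 0.39, and the wild type pair by 0.02. Replicates 1 and 2 were scanned on days 1 and 2 for Ku86 knockout, and on days 3 and 2 for wild type. The part of scan day in these differences was not tested. Single genes could differ from this order: Ctsl read 195 and 485 in Ku86 knockout and 412 and 191 in Terc knockout, so that 1 array of each was in or near the wild type range.

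**Figure D5:**
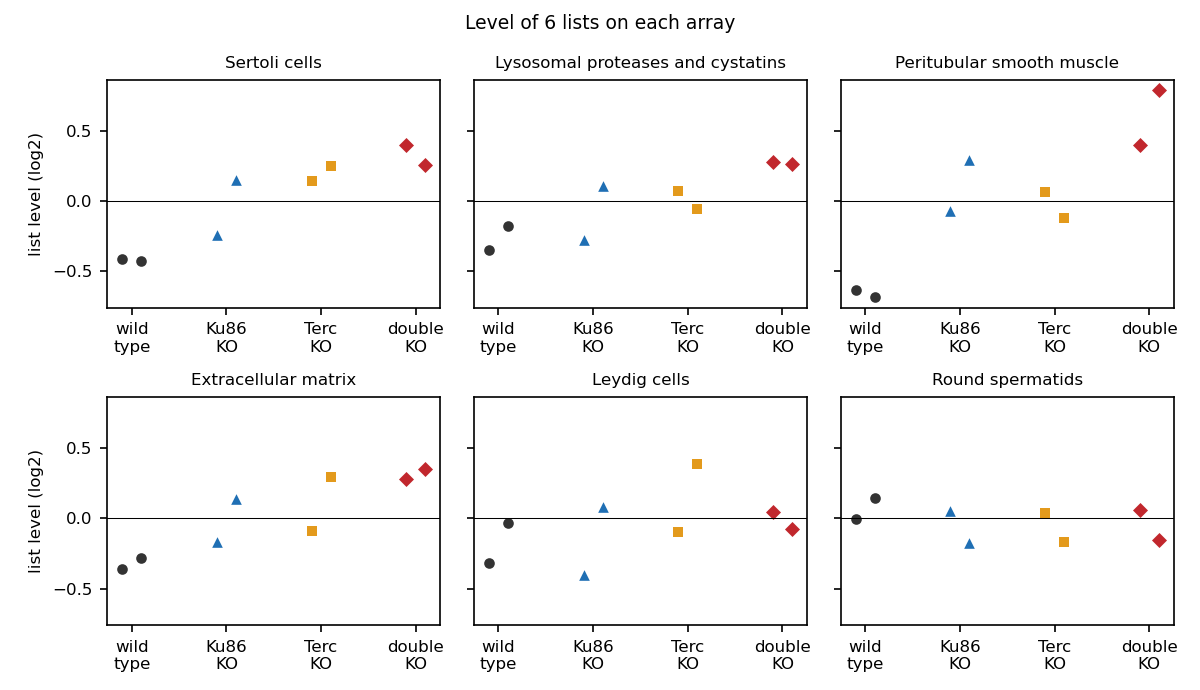
Level of 6 lists on each of the 8 arrays, in log2 units around the mean of the arrays, with 1 symbol per array. In the Sertoli, lysosomal, peritubular and matrix lists the double knockout arrays lie above the wild type arrays. The single knockout arrays lie between them in the Sertoli and peritubular lists but not all in the lysosomal and matrix lists, and in the Leydig and round spermatid lists the groups overlap.

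No probe set passed adjustment in limma for the double knockout against Ku86 knockout (0 of 7282), with 245 at unadjusted p under 0.05 (3.36%). The same count against Terc knockout was 0, with 310 at unadjusted p under 0.05 (4.26%). For the interaction it was 0, with 367 (5.04%). In the Sertoli list 5 of 20 genes differed at p under 0.05 from Ku86 knockout and 6 of 20 from Terc knockout, with median differences of 0.44 and 0.21. In the peritubular list 2 and 4 of 12 did, with medians of 0.48 and 0.70. Both double knockout arrays exceeded the other 6 for 7 of 20 Sertoli genes, 4 of 12 peritubular genes and 6 of 27 matrix genes, where this held for 5.77% of all genes. The comparisons with wild type and with the single knockouts share the double knockout arrays, so they are not independent of each other.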

How the data were processed

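RNA of 8 mouse testis samples, 4 genotypes with 2 arrays each, had been hybridised to MG_U74Av2 arrays, 15 µg of cRNA per array, per the file headers. The deposited values are linear intensities that the authors scaled per array; no source used here names the software. Arrays were grouped by their sample titles. Of 12488 probe sets, 66 controls were left out. Gene symbols came from the platform annotation: 10855 probe sets had 1 symbol, 396 several and 1237 none.

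Signals were raised to a floor at the 20th percentile (11.8) and log2 transformed. Probe sets with a mean under the 40th percentile (38.1) were left out (5140), which left 7282. One mean per genotype was fitted in limma 3.58.1 (R 4.3.3; lmFit, eBayes with a variance trend, 4 residual degrees of freedom), with two-sided tests and Benjamini-Hochberg adjustment over all 7282. A design of 2 against 2 arrays limits precision: the median standard error of a difference was 0.31. The steps were checked on simulated data. In the lists the brightest tested probe set stood for a gene.

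The rule for named genes took Xrcc5, Xrcc6 and Tert, the called probe sets, up to 12 in each direction by size among those with non-overlapping groups and p under 0.01, up to 4 members of each list by the size of limma's statistic, the defining markers of cell types, and promoters with the box. Other list members were named after their values were seen. The comparison and the 40 lists (910 genes, 713 with a probe set) were chosen with earlier results of these data known. Alternatives were another normalization, floor, filter and variance model, fewer arrays, scan day, the replicate block and each array left out.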

Additional observations from a re-analysis of the deposited data

How the results depend on the processing

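For the double knockout against wild type, where 2 probe sets passed adjustment, 0 passed after quantile normalization, without the variance trend, with the experiment number as a replicate block, and after blocking on scan day; 1 passed with median centring or no filter, 4 after raising the floor to the 40th percentile, and 8 in a fit of only the 4 arrays compared. With only the arrays of scan day 2, 30 passed, in a fit with 1 residual degree of freedom that assumes the lone arrays vary like the Terc knockout pair. Leaving out 1 array gave 0 to 4. The 462 probe sets that were higher at unadjusted p under 0.05 became 305 after quantile normalization, 195 with median centring, 274 with the filter at the 60th percentile and 260 on scan day 2, and 294 (without wild type replicate 1) to 601 (without wild type replicate 2) with 1 array left out. The 164 that were lower became 524 with median centring, 81 without the variance trend and 100 on scan day 2, and 64 to 393 without the same arrays. Against Ku86 knockout, 0 became 11 with the higher floor, 4 with no filter and 13 on scan day 2, and 0 to 2 with 1 array left out. Against Terc knockout, 0 became 11, 10 and 9, and 0 to 2. For the interaction, 0 became 9, 8 and 9, and 0 to 1. The causes were not tested.

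The shared replicate numbers are only numbers in the labels. Deviations of same-numbered arrays correlated at 0.17 for double knockout and wild type and at 0.01 to 0.25 over the 6 genotype pairs, and the replicate block gave 557 higher and 207 lower probe sets at unadjusted p under 0.05. Medians of the Sertoli, peritubular, matrix, junction, lysosomal and phagocytosis lists were above 0 in all 22 settings.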

Other observations

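Further lists are given as values, where 6.51% of all genes were higher and 2.37% lower at unadjusted p under 0.05. Of 24 tested heat shock and unfolded protein genes, 4 were higher and 0 lower at unadjusted p under 0.05, with a median difference of 0.12, which was -0.15 with median centring; without wild type replicate 1 the count was 1. Hspa8, a constitutive chaperone, read 97 and 150 in wild type and 263 and 285 on the arrays labelled double knockout (1.18). Of 23 antioxidant genes, 4 were higher and 1 lower (median 0.09), and of 29 proteasome subunits 3 were higher and 2 lower (median 0.03). Psmd1, of the regulatory cap, read 376 and 362 against 635 and 533 (0.66). Of 15 genes of fatty acid binding and oxidation, 3 were higher, Cpt1a among them, and 0 lower (median 0.10).

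Of 10 phospholipases A2, 2 were lower and 0 higher at unadjusted p under 0.05 (2.37% and 6.51% of all genes). Besides Pla2g12a this was Pla2g6, a calcium-independent enzyme, at 2916 and 1916 in wild type, 1331 and 1342 on the arrays labelled double knockout, and 1430 to 1842 on the single knockout arrays (-0.82). Of 24 ribosomal protein genes, 2 were higher and 1 lower (median -0.13). In the heat shock, fatty acid and ribosomal lists, 1 gene each had a wild type mean under the filter and a double knockout mean above it. Aldh1a1, which makes retinoic acid, read 597 and 906 against 1409 and 1228 (0.84).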
